A study of Mus musculus with 6 samples.

Results

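The genes described here are 10 mouse genes: the lysozymes Lyz1 and Lyz2, and 8 genes of macrophages, namely Csf1r, Cx3cr1, Tyrobp, Mrc1, Adgre1, C1qa, C1qb and C1qc. Each gene was matched by its RefSeq identifier to the entries of an expression table from mouse embryonic hearts, with 1 entry per gene, out of 23290 entries in all. Where a gene has several entries, the rule takes a tested one first and then the one with the highest mean level. All 10 genes had an entry, and 9 of them were tested by the authors. Adgre1 was marked as too low for a test. The list was drawn up with the control and mutant values of these genes known, so their values are given as a description.

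RNA was sequenced from hearts at E10.5 on a C57BL/6 background, each heart taken and extracted on its own. The 3 control hearts were Nkx2-5+/+,Casz1f/+, with 1 floxed allele of the zinc finger factor Casz1 and no Cre recombinase. The 3 mutant hearts were Nkx2-5Cre/+,Casz1f/f, with both Casz1 alleles floxed and Cre at 1 allele of Nkx2-5, a homeobox gene of cardiac progenitors. All hearts therefore carried a floxed Casz1 allele, and the mutants alone carried Cre at Nkx2-5. Hence the comparison does not separate the Casz1 and Nkx2-5 loci. Expression is in FPKM, fragment numbers corrected for the length of the transcript and the size of the library. With 1 pooled FPKM per genotype, the level in each heart, the spread between hearts and the depth of each library are not known here.

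Tissue macrophages of the embryo arise from yolk sac and fetal liver progenitors and reach the heart during midgestation, where they clear dying cells. Their survival depends on Csf1r, the receptor for the growth factors Csf1 and Il34. They sense the chemokine Cx3cl1 through Cx3cr1, signal through the immunoreceptor adaptor Tyrobp and take up glycoproteins through the mannose receptor Mrc1. Adgre1 encodes the F4/80 antigen. C1qa, C1qb and C1qc encode the chains of C1q, the recognition part of the classical complement pathway. Lysozyme cleaves bacterial cell walls. Lyz2 is the form of macrophages and other myeloid cells, and Lyz1 is best known from Paneth cells of the gut.

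Both lysozyme genes lie side by side on chromosome 10 of mm10. Lyz2 spans 117277541 to 117282272 and Lyz1 spans 117287795 to 117292868, with 5.52 kb between them and both on the minus strand. Their coding sequences are shown because the pair is close enough for reads to be shared. In the GENCODE transcripts of the same assembly each coding sequence has 447 bases in a transcript of 4 exons, and the 2 genes are identical at 425 of them (95.1%). The first 300 bases from the start codon, 5′ to 3′, hold 20 of the 22 differences, which are in capitals.
Lyz1: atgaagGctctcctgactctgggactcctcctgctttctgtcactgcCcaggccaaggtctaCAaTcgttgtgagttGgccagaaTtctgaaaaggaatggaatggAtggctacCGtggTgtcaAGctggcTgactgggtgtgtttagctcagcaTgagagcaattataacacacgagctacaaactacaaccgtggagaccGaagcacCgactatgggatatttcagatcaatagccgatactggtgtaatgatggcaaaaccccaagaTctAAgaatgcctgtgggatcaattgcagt
Lyz2: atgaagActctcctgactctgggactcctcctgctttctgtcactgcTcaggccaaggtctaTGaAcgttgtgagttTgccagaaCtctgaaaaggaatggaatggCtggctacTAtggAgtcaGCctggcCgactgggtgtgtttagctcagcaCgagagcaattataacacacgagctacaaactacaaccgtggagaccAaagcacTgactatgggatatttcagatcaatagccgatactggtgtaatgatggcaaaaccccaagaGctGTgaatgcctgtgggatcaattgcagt
Within the coding sequence, the longest stretch without a difference covers 118 bases. Over the whole transcripts, 195 of the 1214 windows of 50 bases in Lyz1 (16.1%) also occur in Lyz2, and 24 windows of 100 bases do (2.06%). The sources used here do not say how fragments that fit both genes were assigned, so the split between Lyz1 and Lyz2 is uncertain. The same comparison found no shared window of 50 bases among C1qa, C1qb and C1qc, whose coding sequences aligned at 54.6% to 56.7% identity.

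The 250 bases before the annotated start of each lysozyme gene, from RefSeq (GRCm38.p6), are shown because both genes were lower together. Capitals mark AGGAAGT on either strand, which holds the GGAA core bound by ETS factors such as PU.1, the product of Spi1. Both lie on the minus strand, Lyz1 at chr10:117292869-117293118 and Lyz2 at chr10:117282273-117282522.
Lyz1: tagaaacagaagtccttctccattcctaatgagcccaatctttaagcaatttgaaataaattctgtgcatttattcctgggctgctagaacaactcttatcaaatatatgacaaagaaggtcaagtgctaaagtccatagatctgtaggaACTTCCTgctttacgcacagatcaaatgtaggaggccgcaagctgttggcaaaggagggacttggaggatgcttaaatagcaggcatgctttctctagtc
Lyz2: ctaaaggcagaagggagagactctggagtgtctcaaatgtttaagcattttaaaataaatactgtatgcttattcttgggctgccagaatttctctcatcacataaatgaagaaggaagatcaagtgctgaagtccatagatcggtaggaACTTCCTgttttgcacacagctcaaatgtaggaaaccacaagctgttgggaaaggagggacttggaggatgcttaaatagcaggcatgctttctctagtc
The windows aligned at 79.4% identity, and the last 50 bases before the start were identical. The match sat at the same place in both, from 100 to 94 bases before the start. Promoter entries of 6 of the 10 genes were searched, and 5 of these held the motif, all except Cx3cr1. Csf1r was left out of the search beforehand, and no entry was found for C1qa, Adgre1 and Tyrobp. Across all 32851 promoter windows of this length 7.69% held it. The matches of 3 macrophage genes whose values differed little between the genotypes are shown with 18 bases on each side, at chr4:136886229-136886271 on the minus strand for C1qb, chr4:136893085-136893127 on the minus strand for C1qc and chr2:14229185-14229227 on the plus strand for Mrc1.
C1qb: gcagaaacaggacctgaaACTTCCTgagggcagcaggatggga
C1qc: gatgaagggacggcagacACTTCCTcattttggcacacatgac
Mrc1: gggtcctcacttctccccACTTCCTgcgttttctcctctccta
These matches describe letters in a window and do not show binding.

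Lyz2 and Lyz1 fell in the mutant hearts. Lyz2 was at 16.9 FPKM in the controls against 1.91 FPKM in the mutants, 8.83-fold lower. The authors' deposited table gives it a log2 fold change of -3.14, with an implied standard error (SE) of 0.434, a 95% interval of -3.99 to -2.29 and q = 1.11e-09. Lyz1 was at 3.76 FPKM in the controls against 0.228 FPKM in the mutants, 16.5-fold lower. Its log2 fold change in the authors' deposited table was -4.04 (SE 0.530, 95% interval -5.08 to -3.00, q = 1.21e-10). The intervals of both lysozymes overlap. With both genes summed, lysozyme went from 20.6 to 2.14 FPKM, 9.64-fold lower. The SE is the one implied by the authors' Cuffdiff statistic, which rests on 3 hearts per genotype.

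None of the other 7 tested genes was called at q under 0.05 by the authors' Cuffdiff test, and their smallest unadjusted p was 0.464. Of the 9 tested genes 2 were called lower and 0 higher. Over all 15387 tested entries 0.117% were called lower and 0.305% higher. At q under 0.01 and under 0.1 the same 2 genes were called lower, beside 0.0845% and 0.169% of all tested entries. With q recomputed over the 12224 entries of at least 1 FPKM in either genotype they were called too, beside 0.123% of those entries. Since the genes were chosen from this comparison, nothing is read from these shares.

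**Figure D1:**
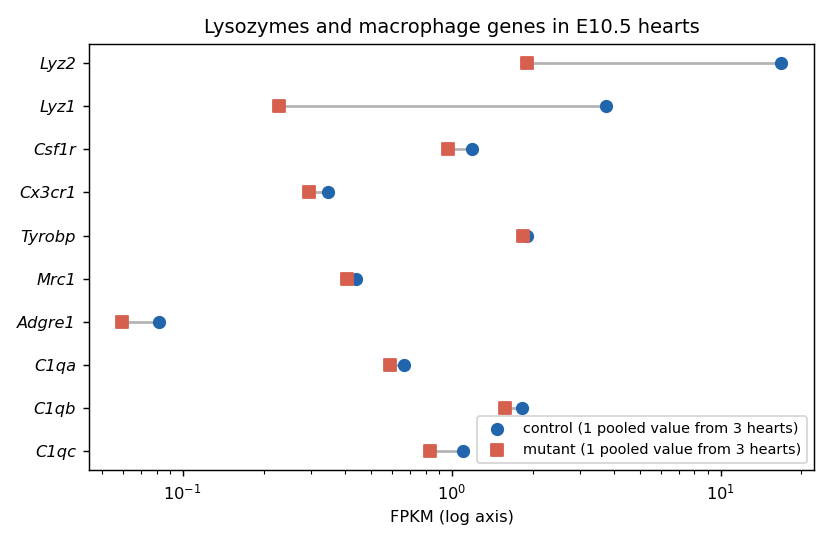
FPKM of each gene in control hearts (circles) and mutant hearts (squares) on a log axis, 1 pooled value per genotype joined by a line. Lyz2 and Lyz1 drop from 16.9 to 1.91 and from 3.76 to 0.228 FPKM, while the markers of the 8 other genes lie close together.

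Csf1r, the growth factor receptor that defines the lineage, read 1.19 FPKM in the controls against 0.969 FPKM in the mutants. Its log2 fold change in the authors' deposited table was -0.30 (SE 0.436, 95% interval -1.15 to 0.56, p = 0.496). Cx3cr1, the fractalkine receptor on chromosome 9 from 120048683 to 120068296, read 0.348 and 0.295 FPKM, a log2 fold change of -0.24 with a 95% interval of -1.29 to 0.82. Both receptors were slightly lower in the mutants, by less than their SE.

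Tyrobp, the adaptor DAP12 on chromosome 7 from 30413788 to 30417579, was the macrophage gene closest to equal levels. It read 1.91 FPKM in the controls against 1.85 FPKM in the mutants (log2 fold change -0.05, SE 0.600, 95% interval -1.23 to 1.13, p = 0.936 in the authors' deposited table). In control hearts Lyz2 stood 8.82-fold above Tyrobp, and in mutant hearts 1.03-fold above it. Against Csf1r the level of Lyz2 was 14.2-fold higher in control and 1.97-fold higher in mutant hearts.

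The surface receptors Mrc1 and Adgre1 were low in both genotypes. Mrc1, on chromosome 2 from 14229414 to 14332023, read 0.443 FPKM in the controls against 0.409 FPKM in the mutants (log2 fold change -0.12, 95% interval -1.08 to 0.85). Mrc1 is also made by some endothelial cells. Adgre1, on chromosome 17 from 57358686 to 57483529, read 0.0817 and 0.0594 FPKM and has no test.

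The C1q genes form a cluster of 18.7 kb on chromosome 4, with C1qb from 136880145 to 136886177, C1qc from 136889802 to 136892914 and C1qa from 136895916 to 136898844. C1qb read 1.83 FPKM in the controls against 1.58 FPKM in the mutants, with a log2 fold change of -0.22 (SE 0.532). C1qc read 1.11 and 0.831 FPKM, and its log2 fold change of -0.41 (95% interval -1.52 to 0.69) was the lowest among the tested macrophage genes. C1qa read 0.666 and 0.589 FPKM, a log2 fold change of -0.18 (SE 0.594). The 3 chains together summed to 3.61 FPKM in the controls against 3.00 FPKM in the mutants. The order of levels was C1qb, C1qc, C1qa in both genotypes.

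**Figure D2:**
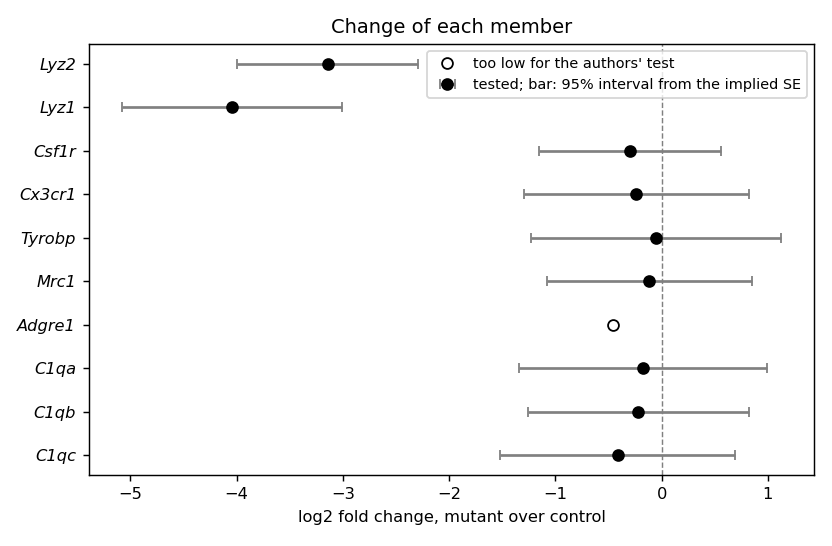
Log2 fold change of mutant over control hearts for each gene. Bars are 95% intervals from the implied SE, and the open circle is Adgre1, which was not tested. The intervals of the 7 tested macrophage genes all include 0 and end above those of Lyz2 and Lyz1.

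Side by side, the lysozymes and the other macrophage genes did not show values of like size. Log2 fold changes of the 7 tested macrophage genes ran from -0.41 to -0.05, or from 1.33-fold to 1.03-fold lower, with a median of -0.22. The lower ends of their 95% intervals ran from -1.52 to -1.08, all above -2.29, the upper end for Lyz2. So a fall as large as that of Lyz2 lies outside the interval of each of the 7 genes, while a fall of 2-fold lies inside all of them. The 8 macrophage genes summed to 7.58 FPKM in the controls against 6.58 FPKM in the mutants, 1.15-fold lower. Lysozymes made up 73.1% of the summed FPKM of the 10 genes in control hearts and 24.5% in mutant hearts.

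All 9 tested genes and Adgre1 lay below 0, and so did 54.7% of all 15301 tested entries with a finite fold, whose median was -0.02. Between 0.321 and 1.88 mean FPKM, the range of the 7 macrophage genes, there were 2615 such entries with a median implied SE of 0.526. Of these 17 were called, and the smallest called change was 3.76-fold. No smaller change was called at these levels.

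**Figure D3:**
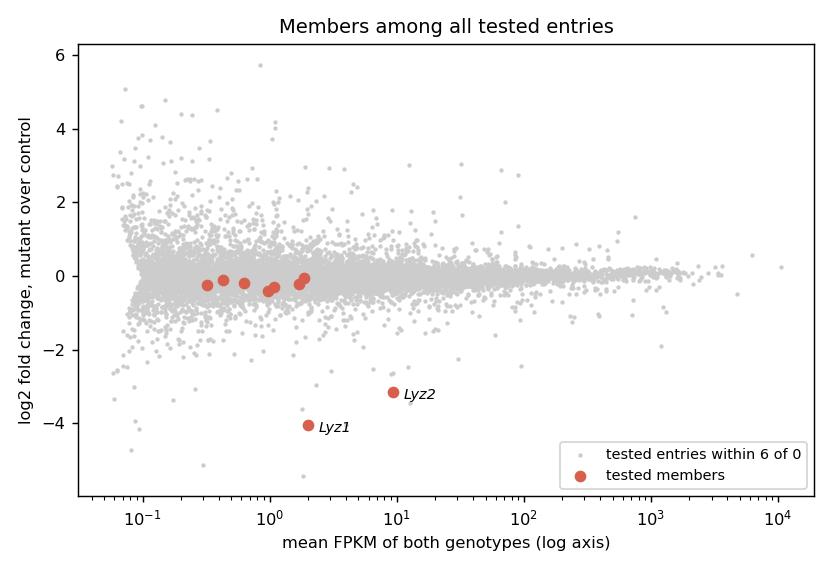
Log2 fold change against mean FPKM (log axis) for tested entries within 6 of 0, which leaves out 7 entries. Both lysozymes stand below the band of grey points, and the 7 macrophage genes lie inside it.

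By level, Lyz2 ranked first of the 10 genes in both genotypes. In control hearts the order continued with Lyz1, Tyrobp, C1qb, Csf1r, C1qc, C1qa, Mrc1, Cx3cr1 and Adgre1. In mutant hearts Lyz1 dropped from rank 2 to rank 9, below Cx3cr1, and the order of the other 9 genes was the same. With 1 pooled value per genotype, neighbours in this order cannot be told apart. Over all tested entries, the mean FPKM of Lyz2 stood at percentile 57.4, that of Lyz1 at 29.3, and those of the 7 tested macrophage genes between 11.4 and 28.5.

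Among the 18 entries called lower in the authors' deposited table, Lyz1 had the second lowest log2 fold change and Lyz2 the fifth. The 3 tested entries with at least 1 FPKM in control hearts whose log2 fold changes were nearest to that of Lyz2, over 2 pooled values, were Sox3, a joint entry of the small RNA genes Mir1843a and Scarna3b, and Fbxo44. Sox3 went from 4.13 to 0.528 FPKM, the joint entry from 23.2 to 2.12 FPKM with an SE of 22.1, and Fbxo44 from 3.31 to 0.270 FPKM.

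The genes beside the lysozymes did not share their values. Within 250 kb there were 5 tested entries, 0 of them called. On the 2 sides the nearest were Yeats4, 53.0 kb away, with 53.7 FPKM in the controls against 52.6 FPKM in the mutants, and Cpsf6, 51.8 kb away, with 20.03 and 21.2 FPKM. Only Lrrc10, a gene of heart muscle 231 kb away, had an unadjusted p under 0.05 (31.9 and 18.1 FPKM, log2 fold change -0.82, p = 0.00629, not called in the authors' deposited table). The lysozyme-like gene 9530003J23Rik, 38.9 kb away, was listed at 0 and 0.00695 FPKM. All 8 further lysozyme family genes examined, Lyzl1, Lyzl4, Lyzl6, Spaca3, Spaca5, Lalba, Lyg1 and Lyg2, were too low for a test and together summed to 0.0838 and 0.126 FPKM.

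Beside the C1q cluster, which lies 11.9 Mb from Casz1 on the same chromosome, 2 entries were tested and 0 called. Ephb2, an ephrin receptor, read 2.84 and 5.36 FPKM (log2 fold change 0.92, p = 0.00403, not called in the authors' deposited table), and Zbtb40 read 3.04 and 2.88 FPKM. Around Tyrobp 0 of 31 tested entries were called. The nearest tested entry on one side was Lrfn3, 51.0 kb away, at 1.31 and 1.52 FPKM, and on the other Hcst, the adaptor DAP10, which starts 0.133 kb beyond it and read 0.140 and 0.204 FPKM. On the side of Hcst, the neighbouring genes Kirrel2 and Nphs1, which encode nephrin family proteins of the kidney filter, lay 30.2 and 42.5 kb from Tyrobp. Kirrel2 read 1.84 FPKM in the controls against 0.943 FPKM in the mutants (log2 fold change -0.97, p = 0.0332, not called in the authors' deposited table). Nphs1 read 0.455 and 0.178 FPKM (log2 fold change -1.35, p = 0.0138, not called in the authors' deposited table). Around Cx3cr1, Mrc1 and Adgre1 0 of 8, 0 of 3 and 0 of 5 tested entries were called. The nearest tested entries on each side within 250 kb, Xirp1 and Slc25a38 for Cx3cr1, Stam for Mrc1 and Vav1 for Adgre1, had log2 fold changes of -0.32, 0.06, 0.03 and -0.71. Of these 54 tested neighbours 4 (Lrrc10, Ephb2, Kirrel2 and Nphs1) had an unadjusted p under 0.05, beside 3.17% of all tested entries. The neighbours of Csf1r were not examined.

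**Figure D4:**
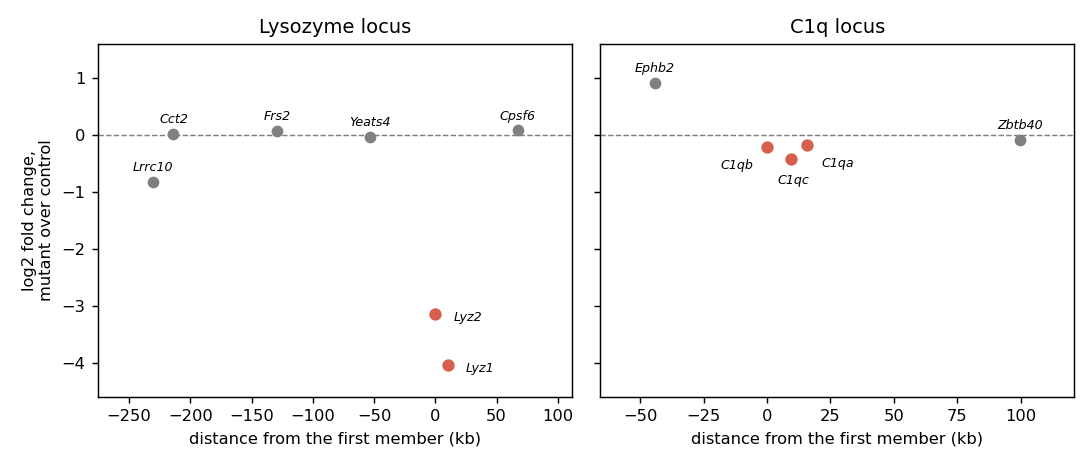
Log2 fold change of mutant over control hearts for members (red) and tested neighbours (grey) against distance in kb from the first member, at the lysozyme locus and the C1q locus. Lyz2 and Lyz1 stand near -3 and -4 among neighbours between -0.82 and 0.08.

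Ligands and signal transducers around the member receptors were not called. Of 12 tested genes of Csf1 and fractalkine signalling 0 passed in either direction by the authors' Cuffdiff test. The list median was -0.18, and 1 gene, Plcg2, had an unadjusted p under 0.05. Csf1, the ligand of Csf1r, read 4.71 FPKM in the controls against 4.80 FPKM in the mutants, Cx3cl1, the ligand of Cx3cr1, read 2.07 and 2.05 FPKM, and Il34 was too low for a test. Plcg2, a phospholipase downstream of immune receptors, read 3.74 and 1.73 FPKM (log2 fold change -1.11, SE 0.355, p = 0.00169, q = 0.201 in the authors' deposited table). The GM-CSF receptor chains Csf2ra and Csf2rb and the adaptor Grb2 had the highest levels, with log2 fold changes of -0.25, -0.10 and -0.01.

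Myeloid transcription factors gave 0 calls among 14 tested genes in the authors' deposited table, 1 unadjusted p under 0.05 and a median of -0.11. Spi1 (PU.1) read 1.40 FPKM in the controls against 0.986 FPKM in the mutants, a log2 fold change of -0.51 with an SE of 0.537. Irf5, an interferon regulatory factor of myeloid cells, read 8.81 and 5.52 FPKM (p = 0.0455, not called in the authors' deposited table). Cebpb and Id3 read 9.27 and 7.47 FPKM and 179 and 204 FPKM.

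Further macrophage markers gave 0 calls among 18 tested genes by the authors' Cuffdiff test and 0 with an unadjusted p under 0.05. Of these 15 lay below 0, with a median of -0.38, and 21 of the 40 listed genes were too low for a test. Cd68, a lysosomal glycoprotein used to stain macrophages, read 2.24 FPKM in the controls against 2.38 FPKM in the mutants, a log2 fold change of 0.09. Lgmn, a lysosomal protease that other cells make as well, read 48.8 and 41.9 FPKM. The phagocyte receptor Sirpa and the scavenger receptor Stab1, which endothelium also makes, had log2 fold changes of -0.45 and -0.03. The lowest tested value was that of cathepsin S (Ctss), at 0.320 and 0.146 FPKM, or -1.13 with an SE of 0.713.

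Complement genes beside C1q had a median of 0.03, with 0 of 15 tested genes called by the authors' Cuffdiff test and 0 at an unadjusted p under 0.05. The chaperone calreticulin (Calr), also a C1q ligand, read 576 and 587 FPKM. The regulators Cd59a and Cr1l had log2 fold changes of -0.25 and -0.01.

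Genes of white blood cells in general lay lower than those of complement but were not called. Of 22 tested genes 17 lay below 0, with a median of -0.58. By the authors' Cuffdiff test 0 of them passed, and 2 had an unadjusted p under 0.05, beside 3.17% of all tested entries. Plek, a phosphoprotein of platelets and leukocytes, read 4.79 FPKM in the controls against 2.62 FPKM in the mutants (p = 0.00874, q = 0.603 in the authors' deposited table). Lcp2, the adaptor SLP-76, read 0.737 and 0.334 FPKM (p = 0.0244 in the authors' deposited table). Cyba, Arhgdib and Lcp1, the most abundant, had log2 fold changes of -0.29, 0.15 and 0.20.

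Neutrophils, a type of granulocyte, also make lysozyme. Granulocyte genes gave 0 calls among 7 tested genes and 1 unadjusted p under 0.05, that of the protease Mmp9 at 0.0421 and 0.118 FPKM. Their median was -0.15. Myeloperoxidase (Mpo) read 3.15 FPKM in the controls against 2.16 FPKM in the mutants, and Ctsg and Csf3r had log2 fold changes of -0.46 and -0.91. Elane and Prtn3, further defining genes of this lineage, carry a status for too many fragments and give no usable value. Mast cell genes gave 0 calls among 3 tested genes, Cpa3, Gata2 and Hdc, with a median of -0.13. Histidine decarboxylase (Hdc) read 2.34 and 0.901 FPKM (p = 0.00314, q = 0.305 in the authors' deposited table). Of the lymphoid genes Cd2, Cd79a and Cd79b alone were tested, all under 0.3 FPKM, with 0 calls, 0 unadjusted p under 0.05 and a median of 0.56.

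**Figure D5:**
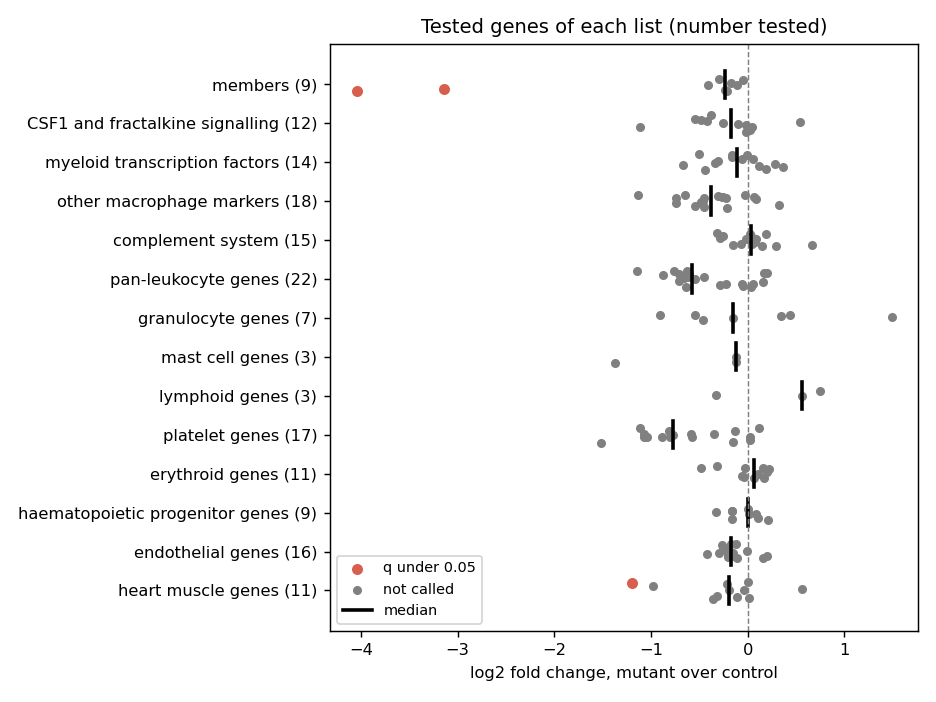
Log2 fold change of mutant over control hearts for the tested genes of 14 lists, the members included, 1 point per gene, with the list median as a black line and genes at q under 0.05 in red. The lung and gut epithelial genes and the embryo sex genes, which include the called genes Sftpa1 and Xist, are not plotted. Among the plotted lists the red points are both lysozymes and Pln of the heart muscle list, and both lysozymes lie to the left of the other plotted genes.

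Markers of some other blood cells also read lower in the mutants, and their part in the lysozyme values was not tested. The 13 defining macrophage markers summed to 11.7 FPKM in the controls against 10.4 FPKM in the mutants, 1.13-fold lower. They include the 8 macrophage genes already summed above, so this is not a separate set. Of the 13 markers 11 lay below 0, with 0 called and none at 0. Of 17 tested platelet genes 14 lay below 0 and 0 were called, with a median of -0.77 and 4 at an unadjusted p under 0.05: Pf4, Ppbp, Gp5 and Tubb1. Of all tested entries with a finite fold 54.7% lay below 0, and 3.17% of all tested entries had an unadjusted p under 0.05. Thbs1 and Nfe2, the other platelet list genes of high level, had log2 fold changes of -0.13 and 0.11. Itgb3 and Gp1bb, the latter in a joint entry with Septin5, also lay above 0, at 0.02 and 0.03. The 4 defining platelet markers summed to 85.7 FPKM in the controls against 42.6 FPKM in the mutants, 2.01-fold lower. Pf4 made up most of both sums, at 60.5 and 28.8 FPKM. The log2 fold changes of the other defining markers Ppbp, Itga2b and Gp9 were -1.51, -0.58 and -0.88. Erythroid and progenitor lists had medians of 0.07 and -0.003 with 0 of 11 and 0 of 9 called and 0 at an unadjusted p under 0.05. In the erythroid list 4 globin entries carry a status for too many fragments and give no usable value. These are Hba-x, Hbb-bh1, Hbb-y and a joint entry of Hba-a1 and Hba-a2. Among tested erythroid genes Hbb-b2, Hbb-b1 and Alas2 had the highest levels (log2 fold changes of -0.48, -0.32 and 0.16). Among tested progenitor genes these were Cd34, Lyl1 and Lmo2 (-0.16, 0.01 and -0.003). Hbb-b1 and Hbb-b2 are close copies, so the split between them is uncertain. The 16 endothelial genes had a median of -0.18 with 0 called and 0 at an unadjusted p under 0.05, and their 4 defining markers were 1.18-fold lower in sum. Plvap, Egfl7 and Tie1 led this list by level, with log2 fold changes of -0.20, -0.01 and -0.16. Fewer cells of a type and less RNA per cell cannot be told apart in whole hearts.

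Epithelial cells of lung and gut also make lysozyme, so 12 of their genes were examined after the values had been seen. Of 4 tested, 1 was called lower, beside 0.117% of all tested entries. It was the surfactant gene Sftpa1, at 0.152 and 0.0190 FPKM (log2 fold change -3.00, SE 0.768, q = 0.0261 in the authors' deposited table). Its mean FPKM was close to the floor, at percentile 0.656 of all tested entries. Lamp3, Abca3 and Napsa had log2 fold changes of 0.21, -0.11 and 0.69, and 8 of the 12 were too low for a test. Among these, Reg3g and Mmp7 were listed at 0 in both genotypes. The other surfactant genes were among them too: Sftpb at 0.0283 and 0.0329 FPKM, Sftpc at 0 and 0.00495, and Sftpd at 0.0120 and 0.00912.

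The pooled groups also differed in embryo sex genes. Xist, which is made in female cells, read 10.1 FPKM in the controls against 0.0238 FPKM in the mutants, and the Y-linked Ddx3y and Eif2s3y read 6.50 and 10.1 FPKM and 22.9 and 33.6 FPKM. Of the 5 sex genes examined Xist alone was called in the authors' deposited table, as lower, beside 0.117% of all tested entries. Ddx3y had an unadjusted p of 0.0316 there. The labels give no sex, and without values per heart its part in the lysozyme values cannot be told apart from that of genotype. It is likewise unknown whether the lysozymes were high in each of the 3 control hearts. The heart muscle markers Tnnt2, Tnni1, Myl4 and Myl7 summed to 12328 and 14657 FPKM, a check of the tissue label. The targeted gene Casz1 read 6.61 and 4.68 FPKM (log2 fold change -0.50, q = 1.00 in the authors' deposited table), and the floxed exons are not named in the labels. Nkx2-5, which carries Cre at 1 allele in the mutants, read 143 and 82.9 FPKM (log2 fold change -0.79, p = 0.00755, q = 0.536 in the authors' deposited table). Of 11 tested heart muscle genes 1 was called and 2 had an unadjusted p under 0.05, both lower, and the median of this list was -0.20. Of all tested entries 0.117% were called lower and 3.17% had an unadjusted p under 0.05. Pln (phospholamban), a regulator of calcium uptake, read 129 FPKM in the controls against 56.2 FPKM in the mutants (log2 fold change -1.20, q = 0.0193 in the authors' deposited table). Nppa, which encodes atrial natriuretic peptide, read 1755 and 888 FPKM (log2 fold change -0.98, p = 0.0123, q = 0.746 in the authors' deposited table). Among the tested genes of this list the myosin light chain genes Myl7, Myl4 and Myl3 had the highest levels, with log2 fold changes of 0.56, 0.02 and -0.21. A further 3 genes of the list, Myh6, Myh7 and Actc1, carry a status for too many fragments and give no usable value.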

How the data were processed

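RNA from 3 control and 3 mutant hearts was sequenced with TruSeq adaptors, per the labels' protocols. The submitters' processing notes name Cuffdiff, Cufflinks 2.1.1, Bowtie2 2.1.0.0, TopHat2 2.0.8, FastQC 0.10.1, SAMtools 0.1.19.0 and the mm10 build. Normalisation and dispersion settings are not given in the sources used here. The single deposited table gives each gene 1 FPKM for each genotype, per the file headers. The log2 fold change, test statistic, p-value and q-value per entry are also those the authors deposited. FPKM holds no count, so depth is unknown and counting error cannot be given.

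Of 23290 entries 22995 were named by RefSeq accession, 130 by GENCODE accession and 121 by lying within a single gene of the same assembly (44 unnamed). The deposited p matched the normal tail of the statistic within 2.82e-06, and q lay within 1.87e-05 of a Benjamini-Hochberg adjustment over the tested entries. The SE was taken as the log2 fold change divided by the statistic, and intervals as normal. On simulated data made with the same formula, this step returned the SE that was put in. That checks the arithmetic and cannot show whether the normal intervals hold for these hearts. No test beyond the authors' was run, since there are no values per heart. Start coordinates were moved to counting from 1.

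The members and the 16 gene lists were chosen with earlier results of these data known, and 2 lists (lung and Paneth epithelium, embryo sex) after these values were seen. Named genes were all members and the list genes called or with an unadjusted p under 0.05. So were the 3 tested genes of each list with the highest FPKM. Also named were the nearest tested neighbour on each side of each locus except Csf1r, and the 3 entries nearest to Lyz2. Other genes named (Csf1, Cx3cl1, Il34, Spi1, Cd68, Ctss, Nkx2-5, Tnnt2, Tnni1, Lrrc10, Kirrel2, Nphs1, lysozyme family genes and list members at 0 or without a value) were chosen after their values were seen. Sftpb, Sftpc and Sftpd were also chosen in this way. Alternatives covered the q threshold, FPKM filters, pseudocounts of 0.1 and 1 FPKM, centring and rescaling. Python 3.11.15, numpy 2.4.6, pandas 2.3.3, scipy 1.17.1, Biopython 1.88 and matplotlib 3.10.9 were used.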

Additional observations from a re-analysis of the deposited data

How the results depend on the processing

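Lyz2 and Lyz1 were the 2 members called lower at q under 0.01, under 0.05 and under 0.1, with q recomputed over entries of at least 1 FPKM in either genotype, and among members of at least 1 FPKM in either genotype. Requiring at least 1 FPKM in both genotypes left 1 called member, Lyz2, because Lyz1 stands at 0.228 FPKM in mutant hearts. No member was called higher under these settings. All 40 member values under pseudocounts, centring and rescaling kept their sign. This could not have come out otherwise, so it is no separate support. A pseudocount cannot change a sign. Centring subtracted a shift of -0.017 and rescaling added one of -0.029, both smaller in size than the -0.048 of Tyrobp. A pseudocount of 1 FPKM brought the log2 fold change of Lyz1 from -4.04 to -1.95, outside its interval. Among mast cell genes the median went from -0.13 to -0.75 over the 2 genes of at least 1 FPKM. Of 83 alternative values 80 stayed within the error or within 1.5 times the count. No replicate could be left out, and no paired analysis was possible because the table holds 1 pooled value per genotype and no column per heart. Low FPKM and the missing values per heart limit what can be said of the macrophage genes.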
